A study of Mus musculus with 24 samples.

Results

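The TNF superfamily ligands and their receptors were examined in 24 bulk RNA sequencing libraries of sorted mouse macrophages. Members were the protein-coding genes whose symbol begins with Tnfsf or Tnfrsf and a number, together with Tnf, Lta, Ltb, Ltbr, Cd40, Cd40lg, Cd27, Cd70, Fas, Fasl, Ngfr and Eda2r. The rule gave 42 genes (17 ligands and 25 receptors) of the 55487 in the table, 1 gene being left out of the rule. It used names and biotype alone and no measured value.

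The 8 groups hold 3 libraries each. Each cell type was taken from mice labelled Z165KO (KO here) and from wildtype mice (WT here). The cell types are lung alveolar macrophages, Kupffer cells, which live in the liver, brain microglia and splenic macrophages. The labels do not describe the Z165KO allele, the sorting gate, the age or strain of the mice, or whether libraries are separate animals. The p-values therefore measure the spread between these libraries, which may be technical. Library totals ran from 50449347 to 65981787 counts. The identity genes of each type were higher in its own WT libraries than in the other 3 types for 12 of 12 alveolar, 10 of 10 Kupffer, 10 of 10 microglial and 8 of 10 splenic genes, and 9 of those 10 were called higher in Kupffer cells too. Zeb2, the gene named in the title of the series, had 126 to 142 counts per 1000000 (CPM) in KO alveolar macrophages, against 190 to 297 CPM in WT alveolar macrophages, and its genotypes overlapped in the other 3 types.

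TNF superfamily ligands are mostly trimeric membrane proteins, some of which are shed, and they cluster receptors on the target cell. Receptors with a death domain, such as Tnfrsf1a and Fas, can start apoptosis, and others recruit TRAF adaptors that activate NF-κB. Macrophages are a main source of Tnf, and family members also carry signals to lymphocytes, such as Tnfsf13b (BAFF) to B cells and Tnfsf9 to T cells that carry its receptor Tnfrsf9.

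Of the 42 members, 36 (14 ligands and 22 receptors) had a mean of at least 1 CPM in at least 1 group. The 6 below were Cd70, Ngfr, Tnfrsf10b, Tnfrsf11b, Tnfsf11 and Tnfsf4, whose highest group mean was 0.85 CPM. In all 8 groups 13 members had at least 1 CPM: the ligands Tnf, Ltb, Tnfsf9, Tnfsf10 and Tnfsf12, and the receptors Cd27, Fas, Ltbr, Tnfrsf11a, Tnfrsf12a, Tnfrsf1a, Tnfrsf1b and Tnfrsf21. Kupffer cells held the most, 31 members at 1 CPM in KO and 30 in WT, and microglia the fewest, 20 in KO and 19 in WT. Alveolar macrophages had 22 in KO and 22 in WT, and splenic macrophages had 27 in KO and 27 in WT.

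**Figure D1:**
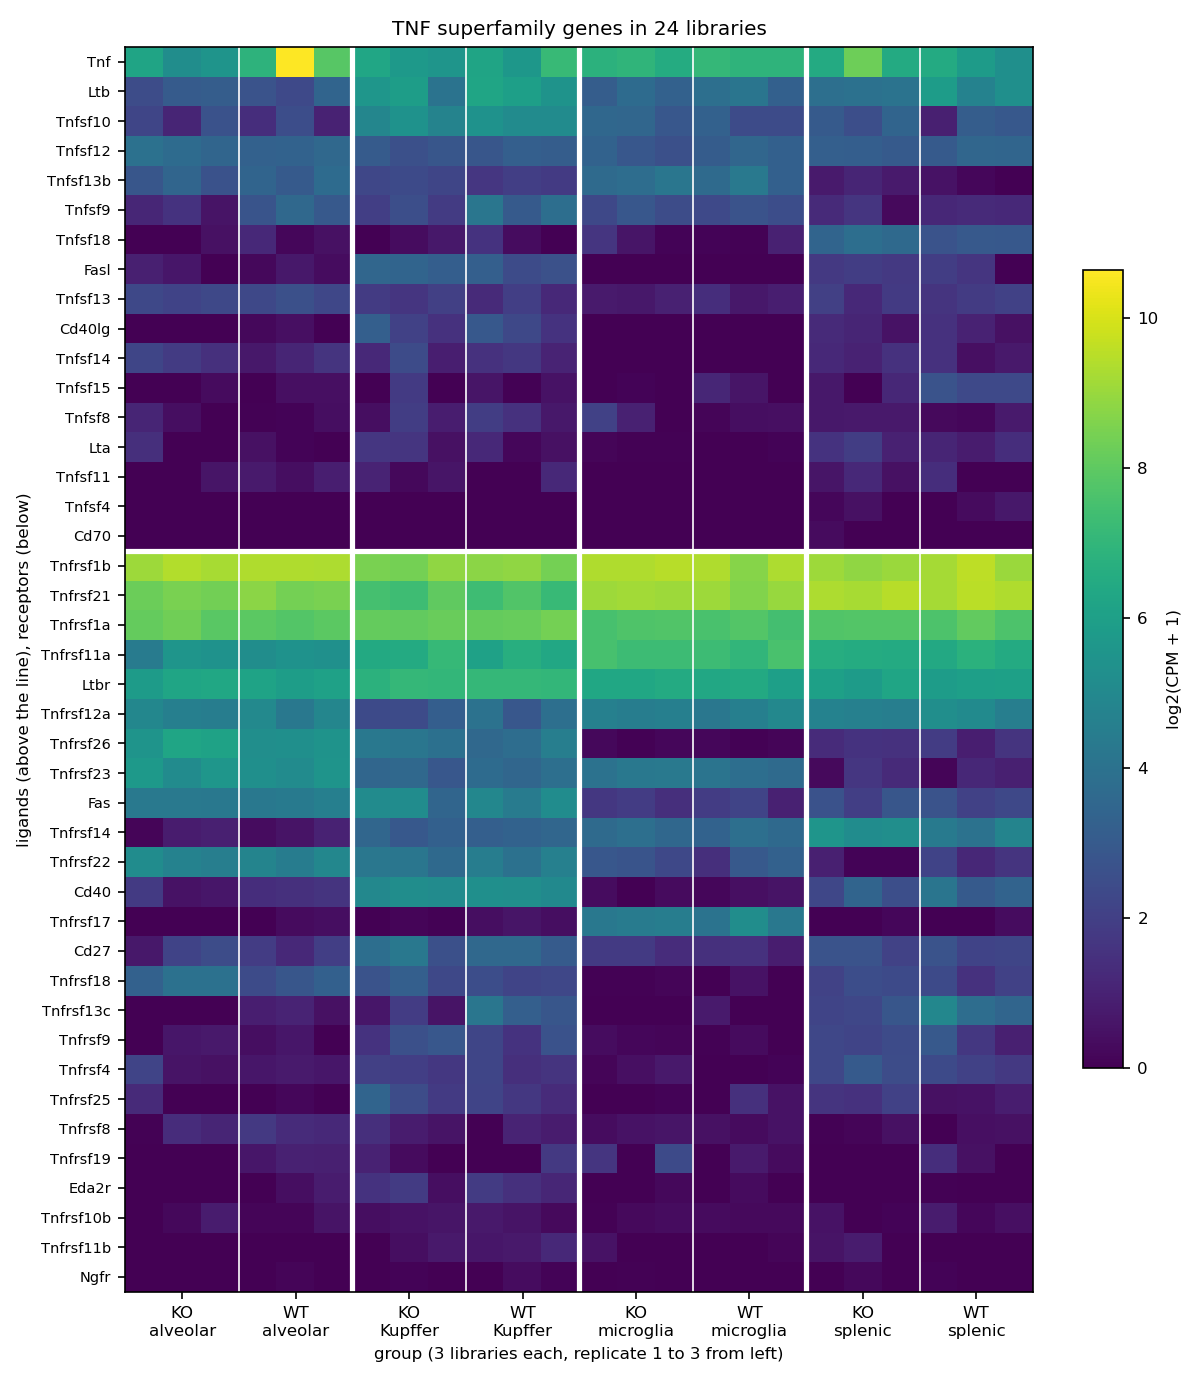
Heat map of the 42 members (rows, ligands above the white line, ordered by mean level) in the 24 libraries (columns, KO left of WT within each cell type), coloured by log2(CPM + 1). Tnfrsf1b, Tnfrsf21 and Tnfrsf1a are bright in every library, and Tnf is brightest in WT alveolar replicate 2, at 1588 CPM.

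The receptor transcripts were dominated by the same few genes in every group. Levels of different genes are compared on the deposited TPM scale (transcripts per 1000000, which divides by length). Tnfrsf1b, the TNF receptor found mainly on blood and endothelial cells, averaged 479 ± 57.8 TPM in KO and 536 ± 21.1 TPM in WT alveolar macrophages (SD, n = 3 each, as for all such values). In microglia Tnfrsf1b had 587 ± 18.7 TPM in KO and 474 ± 146 TPM in WT. Tnfrsf21, a receptor with a death domain, had its highest mean in splenic macrophages, with 505 ± 34.3 TPM in KO and 519 ± 67.1 TPM in WT. Tnfrsf1a, the TNF receptor with a death domain, led in Kupffer cells, with 342 ± 11.3 TPM in KO and 362 ± 31.3 TPM in WT. These 3 genes made up between 62.3% and 84.3% of the summed receptor TPM in every single library. In Kupffer cells Ltbr ranked above Tnfrsf21, with 168 ± 15.3 TPM in KO and 179 ± 6.35 TPM in WT. Tnfrsf21 had 154 ± 38.9 TPM in KO and 132 ± 30.3 TPM in WT Kupffer cells. The sum over the 25 receptors averaged between 1228 and 1671 TPM by group. The sum over the 17 ligands averaged between 154 and 1285 TPM, and the upper end rests on WT alveolar replicate 2 at 3043 TPM, against 299 and 512 TPM in the other WT alveolar libraries.

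The promoter windows of 2 leading ligands and 2 leading receptors are given so that the start of each gene can be read beside its level. They are RefSeq windows on GRCm38.p6 (250 bases before to 50 after the start), 5′ to 3′ on the gene's strand. Capitals mark matches to the NF-κB consensus and to GAGGAA (read on the other strand as TTCCTC), the core bound by the myeloid factor PU.1.
Tnf, chr17:35201958-35202257, - strand: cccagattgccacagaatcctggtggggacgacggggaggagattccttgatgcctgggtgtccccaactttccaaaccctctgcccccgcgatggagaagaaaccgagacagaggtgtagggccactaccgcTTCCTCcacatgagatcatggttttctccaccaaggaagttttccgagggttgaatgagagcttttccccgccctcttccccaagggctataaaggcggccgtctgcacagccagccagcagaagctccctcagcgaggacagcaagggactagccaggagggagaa
Ltb, chr17:35194257-35194556, + strand: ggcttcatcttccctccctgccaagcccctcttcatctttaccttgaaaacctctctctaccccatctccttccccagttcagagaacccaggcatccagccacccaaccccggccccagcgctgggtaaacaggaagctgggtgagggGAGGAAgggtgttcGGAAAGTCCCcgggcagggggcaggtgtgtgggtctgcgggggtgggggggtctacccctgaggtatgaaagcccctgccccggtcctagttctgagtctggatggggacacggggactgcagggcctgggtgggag
Tnfrsf1b, chr4:145246821-145247120, - strand: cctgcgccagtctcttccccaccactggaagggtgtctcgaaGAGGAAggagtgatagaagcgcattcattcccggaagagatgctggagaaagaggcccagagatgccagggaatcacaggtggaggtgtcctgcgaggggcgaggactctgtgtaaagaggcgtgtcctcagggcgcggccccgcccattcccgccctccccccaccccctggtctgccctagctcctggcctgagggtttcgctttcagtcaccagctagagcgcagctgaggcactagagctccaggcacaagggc
Tnfrsf21, chr17:43016305-43016604, + strand: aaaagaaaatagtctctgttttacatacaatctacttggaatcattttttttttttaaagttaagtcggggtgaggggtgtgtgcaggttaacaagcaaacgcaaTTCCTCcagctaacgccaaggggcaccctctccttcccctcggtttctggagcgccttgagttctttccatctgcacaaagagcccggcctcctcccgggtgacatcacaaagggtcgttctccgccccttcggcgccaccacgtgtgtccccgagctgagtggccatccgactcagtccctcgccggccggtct
The Ltb window holds 1 NF-κB match and 1 GAGGAA match, and the other 3 windows hold 1 GAGGAA match and no NF-κB match each. Windows were at hand for 32 of the 42 members, which have 36 windows. The NF-κB consensus was in 3 of these 36 (8.33%), against 4.51% of all 32851 windows, and GAGGAA was in 13 (36.1%), against 28.3% of all. A match is a match of letters in a window of 300 bases and was not tested as a binding site.

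Among ligands Tnf had the highest mean TPM in all 8 groups. It averaged 221 ± 33.8 TPM in KO and 240 ± 29.0 TPM in WT microglia, and its share of the summed ligand TPM there was 76.6% to 77.4% in KO and 73.9% to 79.9% in WT. Ltb, which joins Lta in a heterotrimer that binds Ltbr, followed in Kupffer cells with 85.2 ± 48.0 TPM in KO and 126 ± 35.6 TPM in WT. Ltb and Ltbr were both present in every group, but Lta, the partner of Ltb, had a group mean of at most 1.89 CPM. Tnfsf12 (TWEAK) had group means from 12.96 ± 2.27 TPM in KO Kupffer cells to 24.7 ± 4.46 TPM in KO alveolar macrophages. Tnfsf12 and its neighbour Tnfsf13 share an annotated readthrough gene and an antisense gene, so the counts of both are uncertain.

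**Figure D2:**
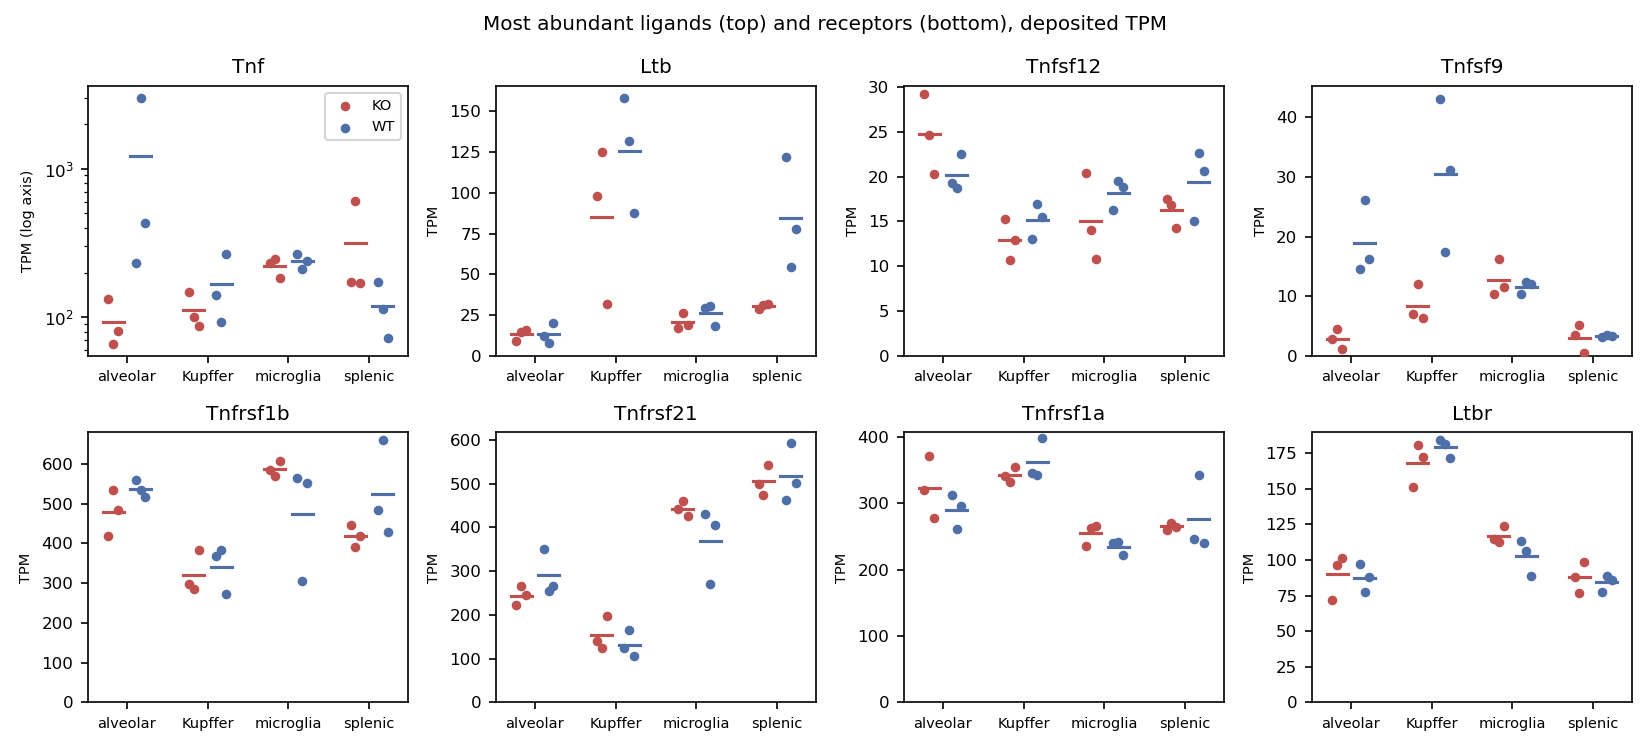
Deposited TPM of 4 ligands (top row) and 4 receptors (bottom row) by cell type, with 1 point per library, a line at each mean and KO left of WT. The Tnf axis is logarithmic. Tnf in WT alveolar macrophages has the widest spread, 1212 ± 1525 TPM (SD, n = 3).

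The 4 cell types differed in most of the detectable family. Across the 12 WT libraries 39 members had counts enough for the test. An F test in edgeR at an adjusted p under 0.05 called 31 of them (79.5%), 12 of 15 ligands and 19 of 24 receptors, against 52.3% of all genes tested. The 8 not called were Tnfsf11, Tnfsf12, Tnfsf18, Tnfrsf1a, Tnfrsf8, Tnfrsf10b, Tnfrsf19 and Tnfrsf25. Among them Tnfrsf1a ranged from 195 ± 22.5 CPM in microglia to 299 ± 32.9 CPM in Kupffer cells (adjusted p = 0.127). A lower level in a bulk library may be fewer expressing cells or less RNA per cell, which cannot be told apart. Without 1 WT library at a time, between 25 and 30 members were called. By pairs of WT types, 19 members differed between alveolar macrophages and Kupffer cells (28% of all genes), 15 between alveolar macrophages and microglia (39.8%) and 14 between alveolar and splenic macrophages (26.9%). The numbers were 23 between Kupffer cells and microglia (32.4%), 15 between Kupffer cells and splenic macrophages (16.4%) and 18 between microglia and splenic macrophages (34.9%).

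In WT alveolar macrophages against the mean of the other 3 WT types, 17 of 39 members were called, against 32% of all genes. Of these 10 were higher (17.3% of all genes were) and 7 lower (14.7% of all genes were). This contrast, used for each type, averages log levels. A type with almost no reads of a member can thus raise the difference of each other type. Tnfrsf26, an orphan member of the TNF receptor family, had 37.0, 37.9 and 43.4 CPM in the WT alveolar libraries. It averaged 15.5 CPM in WT Kupffer cells, 1.87 CPM in WT splenic macrophages and 0.102 CPM in WT microglia. No library of one type overlapped another type, every neighbouring pair in this order differed (largest adjusted p = 0.0229), and the ends were 387-fold apart. Tnfrsf23, a mouse decoy receptor for TRAIL, had 37.9, 34.3 and 44.1 CPM in WT alveolar macrophages. Its log2 difference from the other types was 2.93 (SE 0.39, adjusted p = 0.000159). Tnfrsf14, the receptor HVEM, was lowest there, at 0.273, 0.478 and 1.03 CPM, a log2 difference of -4.46 (SE 0.43, adjusted p = 1.3e-05). Ltb was also lower (log2 -2.30, SE 0.35, adjusted p = 0.000434), with 4.02 to 9.86 CPM.

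Tnf was called higher in WT alveolar macrophages, but 1 library decided the size. The WT alveolar libraries had 117, 1588 and 232 CPM of Tnf. The other WT types averaged 125 ± 8.19 CPM in microglia, 88.3 ± 49.8 CPM in Kupffer cells and 61.5 ± 25.5 CPM in splenic macrophages. With all libraries the log2 difference was 2.92 (SE 0.58, adjusted p = 0.00253). Without WT alveolar replicate 2 it was 0.96, with an adjusted p of 0.0928. In that same library the summed CPM of 17 immediate early and dissociation stress genes was 30880, against 11130 and 15380 in the other WT alveolar libraries. Its 17 NF-κB target genes summed to 10050 CPM, against 2763 and 3685 CPM. The part of these genes in the Tnf value was not tested.

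In WT Kupffer cells 22 of 39 members were called, against 22.8% of all genes, 19 of them higher (15.2% of all genes were) and 3 lower (7.58% of all genes were). Without WT Kupffer replicate 1 the count was 14. Cd40, the receptor through which T cells activate antigen-presenting cells, had 38.6, 36.6 and 32.2 CPM. Splenic macrophages averaged 10.99 CPM of Cd40, alveolar macrophages 1.81 CPM and microglia 0.322 CPM. Each neighbouring pair in that order differed (largest adjusted p = 0.0148), and the ends were 111-fold apart. Tnfsf10, the death ligand TRAIL, had 41.9, 33.5 and 33.7 CPM, above each library of the other types, of which the highest held 8.76 CPM. Ltbr averaged 134 ± 1.85 CPM and differed from the next type, microglia at 77.8 ± 12.5 CPM (adjusted p = 0.00477). Tnfrsf21, Tnfrsf12a and Tnfrsf1b were the 3 lower receptors. Tnfrsf21 averaged 172 ± 38.8 CPM in Kupffer cells and 380 ± 54.3 CPM in alveolar macrophages, the next type up (adjusted p = 0.00083).

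Several of the members higher in Kupffer cells are better known from lymphocytes. Fasl, the ligand of Fas on cytotoxic cells, had 8.28, 4.46 and 5.28 CPM in WT Kupffer cells and 0 reads in WT microglia. Cd40lg, the ligand of Cd40 on helper T cells, had 6.58, 3.97 and 1.98 CPM there and also 0 reads in WT microglia. Cd27, Tnfrsf4, Tnfrsf9, Tnfrsf25 and Tnfsf14 were called higher as well. Tnfrsf25 was only just called (adjusted p = 0.049), and the F test between the WT types did not call it (adjusted p = 0.0671). The levels of these lymphocyte members were not particular to Kupffer cells. Cd40lg, Tnfrsf4, Tnfrsf9 and Tnfsf14 were also called higher in WT splenic macrophages, and Tnfsf14 in WT alveolar macrophages. Tnfsf14 had 0 reads in WT microglia. It did not differ between WT alveolar macrophages and Kupffer cells (adjusted p = 0.755) or splenic macrophages (adjusted p = 0.81). None of the members named here, Fasl and Cd40lg included, differed between WT Kupffer cells and WT splenic macrophages (smallest adjusted p = 0.13, for Cd27). Of the T and NK cell markers 14 of 14 were likewise higher in WT Kupffer cells, with summed levels of 264 to 432 CPM, against 1.2 to 4.29 CPM in WT microglia. In microglia Cd3e stayed at or below 0.197 CPM and Nkg7 was at 0. WT splenic macrophages summed to 83.7 to 164 CPM. WT alveolar macrophages summed to 326 to 384 CPM, of which Cd2 alone was 289 to 356 CPM. All 12 endothelial markers differed between the WT types, and 11 were higher in Kupffer cells. The part of these cells in the members' levels was not tested.

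In WT microglia 19 of 39 members were called, against 41.9% of all genes, 5 higher (21.7% of all genes were) and 14 lower (20.3% of all genes were). Tnfrsf17, the plasma cell receptor BCMA for APRIL and BAFF, had 15.5, 35.8 and 18.2 CPM in WT microglia. The other 9 WT libraries held at most 0.54 CPM. Tnfrsf17 differed from the next type, Kupffer cells (adjusted p = 0.00422). Tnfsf13b (BAFF), one of its ligands, was highest in microglia too, with 11.7, 18.4 and 8.52 CPM, close to alveolar macrophages at 9.68, 7.06 and 12.1 CPM (adjusted p = 0.568 between the pair). Kupffer cells averaged 2.54 CPM and splenic macrophages 0.198 CPM of Tnfsf13b. Tnfrsf11a (RANK) led in microglia at 158 ± 31.1 CPM, Tnfrsf21 and Tnfrsf14 were the other 2 called higher, and the RANK ligand Tnfsf11 had 0 reads in the 3 libraries.

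Markers of B and plasma cell lineage set beside Tnfrsf17 gave a mixed picture in microglia. Ighm stood at 527 to 630 CPM in WT microglia and made up most of a summed level of 577 to 703 CPM. Among the other B cell markers Cd79b had 28.2 to 57.2 CPM there, Ighd 8.94 to 19.7 CPM and Cd22 3.82 to 6.65 CPM. Fcmr had 0 reads, Pax5 at most 0.0592 CPM and Cd79a at most 1.9 CPM. The members called lower in microglia were the ligands Cd40lg, Fasl, Lta, Ltb, Tnfsf13 and Tnfsf14 and the receptors Cd27, Cd40, Fas, Tnfrsf13c, Tnfrsf18, Tnfrsf26, Tnfrsf4 and Tnfrsf9.

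In WT splenic macrophages 20 of 39 members were called, against 24.2% of all genes, 13 higher (14.5% of all genes were) and 7 lower (9.69% of all genes were). Without WT splenic replicate 1 or 2 the count was 12. Tnfrsf13c, the BAFF receptor of B cells, had 29.5, 13.1 and 10.04 CPM, close to Kupffer cells at 17.2, 8.42 and 6.23 CPM (adjusted p = 0.647 between the pair). All 13 B cell markers were higher in WT splenic macrophages too, with summed levels of 1376 to 2068 CPM, and their part in Tnfrsf13c was not tested. Tnfrsf14 averaged 20.7 ± 6.0 CPM in splenic macrophages and 11.5 ± 2.32 CPM in microglia, and the pair did not differ (adjusted p = 0.102). Tnfsf18, the ligand of GITR, had 5.55, 6.76 and 6.51 CPM, above each library of the other types (highest 1.92 CPM). Its log2 difference was 3.65 (SE 1.04, adjusted p = 0.0254), though 5 of 12 fits without 1 library did not call it. Among the members called, Tnfsf13b and Tnfrsf23 had the most negative differences, with log2 differences of -5.00 (SE 0.70, adjusted p = 0.000309) and -4.47 (SE 0.58, adjusted p = 0.000201).

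Fas, the death receptor of Fasl, was called higher in both WT Kupffer cells, with 29.7, 20.7 and 34.8 CPM, and WT alveolar macrophages, with 18.2 to 23.1 CPM. In WT microglia it had 0.966 to 3.57 CPM and in WT splenic macrophages 3.21 to 5.67 CPM, without overlap with the first pair. The members named next were low, with every group mean under 6 CPM, so their differences rest on few reads. Tnfsf13 (APRIL) was called higher in WT alveolar macrophages, with 3.86 to 4.98 CPM, and lower in WT microglia, with 0.631 to 1.64 CPM. Eda2r, a receptor for the ectodysplasin form EDA-A2, was called higher in Kupffer cells, with 1.23 to 2.62 CPM, and had reads in 4 of the other 9 WT libraries. Tnfsf8, the ligand of Tnfrsf8, was called higher there too, with 0.623 to 2.86 CPM. Tnfrsf8 itself had at most 2.39 CPM in any library and was not called. Cd70, the ligand of Cd27, had at most 0.253 CPM, and Ngfr at most 0.27 CPM, in any library.

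**Figure D3:**
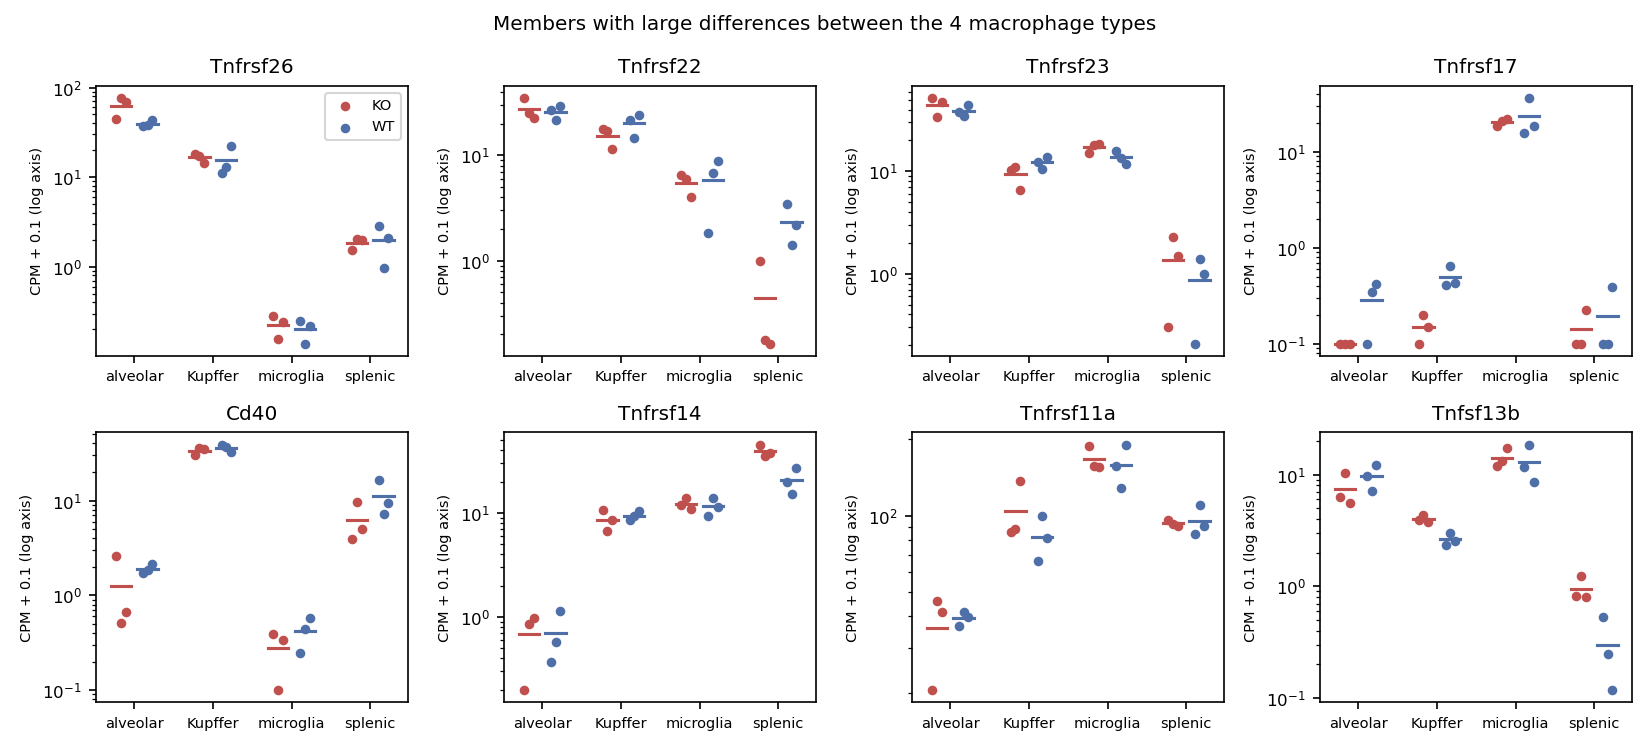
CPM (with 0.1 added, logarithmic axes) of 8 members by cell type, 1 point per library, a line at each mean and KO left of WT. Tnfrsf17 is high in microglia alone, with 15.5 to 35.8 CPM in WT, and Tnfrsf26 steps down through alveolar, Kupffer, splenic and microglial libraries in both genotypes.

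Members that lie next to each other did not always share a pattern. On mm10, 22 members fall into 9 clusters in which each gene lies within 100 kb of the next. Tnfrsf26, Tnfrsf22 and Tnfrsf23 lie within 78.2 kb (chr7:143607659-143685872, minus strand), under an antisense gene on the opposite strand, and the strand of counting is not stated, so their reads cannot be told apart. All 3 had their highest mean in WT alveolar macrophages. The next type did not differ for Tnfrsf22 (Kupffer cells, adjusted p = 0.515) or Tnfrsf23 (microglia, adjusted p = 0.0513). In WT microglia they parted, with 0.102 ± 0.0573 CPM of Tnfrsf26, 5.75 ± 3.64 CPM of Tnfrsf22 and 13.7 ± 2.07 CPM of Tnfrsf23. In WT splenic macrophages the means were 1.87, 2.24 and 0.764 CPM in the same gene order. Ltb, Tnf and Lta lie within 10.9 kb (chr17:35194439-35205351), and their WT means ranked differently. Ltb had its highest mean in Kupffer cells and Lta in splenic macrophages, at 1.17 ± 0.434 CPM. Kupffer cells and splenic macrophages did not differ for either gene (adjusted p = 0.563 for Ltb and 0.619 for Lta). Tnf had its highest mean in alveolar macrophages, where the WT libraries had 117, 1588 and 232 CPM. Cd27, Ltbr and Tnfrsf1a lie within 129.9 kb (chr6:125232622-125362484), and each had its highest mean in Kupffer cells. Only Ltbr differed there from the next type (adjusted p = 0.00477). The adjusted p was 0.13 for Cd27 against splenic macrophages and 0.364 for Tnfrsf1a against alveolar macrophages.

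Differences between cell types were present in the KO libraries as well. Among the 12 KO libraries 31 of 39 members differed between types, against 56.9% of all genes. The members called in both genotypes numbered 26, which is 83.9% of either list. Lta, Tnfrsf11b, Tnfsf8, Tnfsf9 and Tnfsf15 were called in WT alone. The share of all genes called in both genotypes is not given here, so this overlap cannot be read against it. Against the mean of the other 3 KO types, 16 members were called in alveolar macrophages (40.1% of all genes), 19 in Kupffer cells (23.5%), 21 in microglia (43.5%) and 17 in splenic macrophages (28.8%). Of these, 13, 18, 14 and 13 were called in the WT libraries too, all with the same sign. The share of all genes for such repeated calls is not given either. Tnfrsf17 in KO microglia had 18.2, 20.6 and 21.8 CPM, and no other KO library exceeded 0.127 CPM. Cd40 in KO Kupffer cells had 30.02, 35.9 and 34.5 CPM, against at most 9.63 CPM in any other KO library. Tnf was not called in KO alveolar macrophages against the other KO types, and it was called higher in KO splenic macrophages, where the libraries had 89.4, 309 and 90.7 CPM. KO microglia had 113, 124 and 92.5 CPM of Tnf, so only the splenic library at 309 CPM lay above them.

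Between KO and WT no member passed the test within any of the 4 cell types. In alveolar macrophages 0 of 32 members tested were called, against 0.317% of all genes. In Kupffer cells it was 0 of 39 (0.0629% of all genes), in microglia 0 of 25 (0% of all genes) and in splenic macrophages 0 of 36 (0.747% of all genes). At an unadjusted p under 0.05 there were 6 members in alveolar macrophages (12.5% of all genes), 4 in Kupffer cells (6.94%), 0 in microglia (4.44%) and 8 in splenic macrophages (11.7%). The fit of all 24 libraries called 2 members in alveolar macrophages (1.24% of all genes). DESeq2 called 6 members in alveolar macrophages (5.08% of all genes), 2 in Kupffer cells (2.09%), 0 in microglia (0.519%) and 5 in splenic macrophages (4.61%). The median log2 difference of the members tested was -0.02 in alveolar macrophages, -0.07 in Kupffer cells, 0.08 in microglia and 0.06 in splenic macrophages. The medians of all genes were -0.015, -0.0029, -0.0065 and -0.0029 in the same order.

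For the abundant receptors the intervals of the difference bound its size. Tnfrsf1b had a log2 difference, KO minus WT, of -0.09 in alveolar macrophages (95% confidence interval -0.33 to 0.16). In Kupffer cells it was -0.07 (-0.54 to 0.41), in microglia 0.26 (-0.19 to 0.70) and in splenic macrophages -0.27 (-0.64 to 0.11). For Tnfrsf1a the 4 intervals lay between -0.40 and 0.55, and for Ltbr between -0.36 and 0.48. Tnfrsf17 in microglia had a difference of -0.19 (-0.88 to 0.51), and Cd40 in Kupffer cells one of -0.08 (-0.41 to 0.25).

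**Figure D4:**
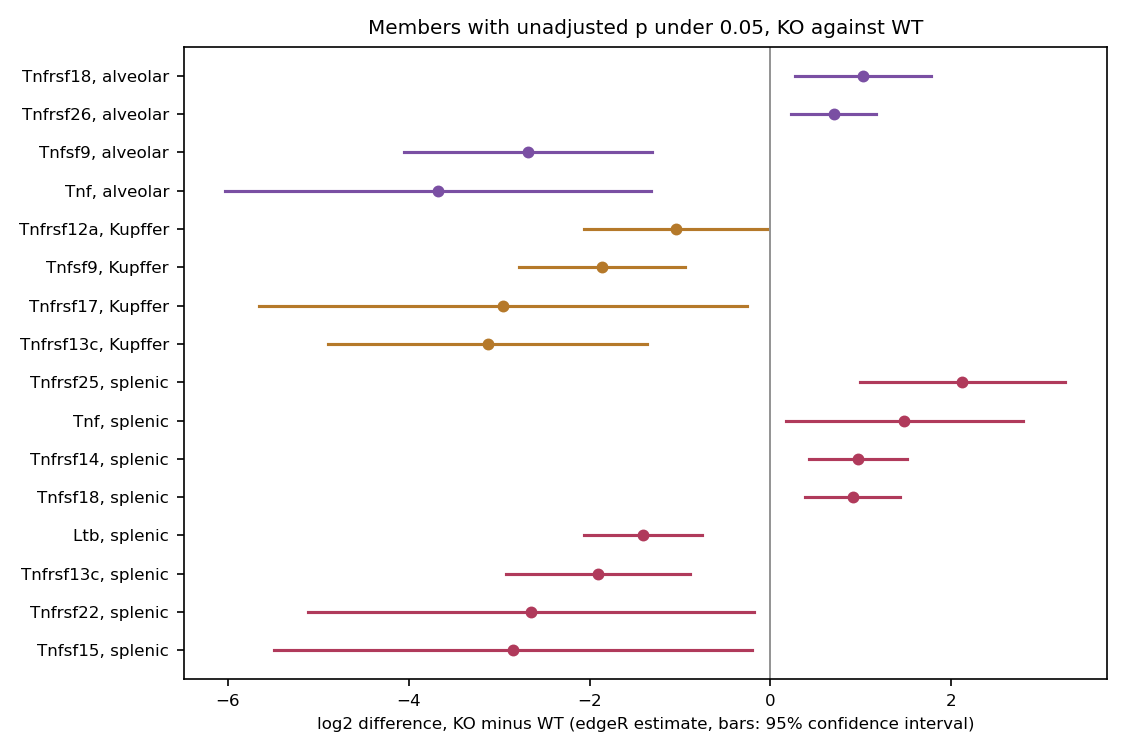
Log2 differences, KO minus WT, of the 16 member and cell type pairs with an unadjusted p under 0.05 and reads in both genotypes; points are edgeR estimates and bars 95% confidence intervals. None has an adjusted p under 0.05, and no microglial pair is among them.

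In alveolar macrophages the widest difference among ligands was in Tnf. KO libraries had 72.5, 35.9 and 44.3 CPM, against 117, 1588 and 232 CPM in WT libraries. The highest KO library was below the lowest WT library, and WT replicate 2 stood far above the other two. The log2 difference was -3.68 (SE 1.0, adjusted p = 0.196), and -1.71 without WT replicate 2. The adjusted p ran from 0.02, in the fit of all 24 libraries, to 0.492 over the alternatives. Summed NF-κB target genes were 2747 to 3203 CPM in KO and 2763, 10050 and 3685 CPM in WT, and summed stress genes were 9556 to 10810 CPM in KO and 11130, 30880 and 15380 CPM in WT. Their part in the Tnf values was not tested.

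Tnfsf9 showed the same order, with less spread between the WT libraries. It had 1.21, 1.93 and 0.462 CPM in KO alveolar macrophages, against 5.74, 10.98 and 6.82 CPM in WT. The highest was WT replicate 2, which also held the highest stress and NF-κB target sums of the alveolar libraries. The groups did not overlap, with a log2 difference of -2.68 (SE 0.58, adjusted p = 0.123). DESeq2 gave 0.000152 and the fit of all 24 libraries 0.035, within a range of 0.000152 to 0.393 over the alternatives. In Kupffer cells Tnfsf9 had 2.88, 4.82 and 2.6 CPM in KO, against 17.3, 7.15 and 13.2 CPM in WT, again without overlap (log2 -1.87, SE 0.39, adjusted p = 0.19). Summed stress genes there were 15230 to 16960 CPM in KO and 21120, 16720 and 32640 CPM in WT replicates 1 to 3. The part of stress and NF-κB target genes in the Tnfsf9 values was not tested. In microglia Tnfsf9 had 4.0, 6.37 and 4.62 CPM in KO, against 4.06, 5.58 and 4.75 CPM in WT. In splenic macrophages it had 1.43, 2.11 and 0.206 CPM in KO, against 1.29, 1.41 and 1.37 CPM in WT, and the groups overlapped in both. Tnfrsf9, its receptor, stayed at or below 0.639 CPM in alveolar libraries of both genotypes.

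In alveolar macrophages 6 receptors had 0 reads in the 3 KO libraries: Eda2r, Ngfr, Tnfrsf11b, Tnfrsf13c, Tnfrsf17 and Tnfrsf19. Eda2r, Ngfr and Tnfrsf17 had at most 0.757 CPM in any WT alveolar library, and Tnfrsf11b had 0 reads there too. Tnfrsf13c had 0 reads in KO and 135 reads in WT (0.837, 1.06 and 0.406 CPM), at least 45.4-fold lower against a floor of 3 reads over the group. Tnfrsf19, the receptor TROY, had 0 reads in KO and 142 in WT (0.581, 0.973 and 0.905 CPM), at least 48.6-fold lower. The adjusted p was 0.0949 for Tnfrsf13c and 0.0808 for Tnfrsf19, and such floors cover counting error only. Tnfrsf18 (GITR) had 8.98, 14.6 and 14.6 CPM in KO, against 4.32, 6.18 and 8.57 CPM in WT (log2 1.02, SE 0.32, adjusted p = 0.256). Tnfrsf26 had 44.1, 75.8 and 68.7 CPM in KO, against 37.0, 37.9 and 43.4 CPM in WT (log2 0.70, SE 0.20, adjusted p = 0.214). For both, all KO libraries lay above all WT libraries. Of the neutrophil markers 1 of 12 tested rose in KO alveolar macrophages (Cxcr2), with sums of 620 to 774 CPM in KO and 267 to 445 CPM in WT. Of the monocyte markers 1 of 11 fell there (Ms4a6c), with sums of 513 to 816 CPM in KO and 1214 to 1698 CPM in WT. Of the epithelial markers 1 of 10 rose (Cdh1), with sums of 633 to 715 CPM in KO and 302 to 538 CPM in WT. The part of these 3 lists in the alveolar values was not tested.

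In Kupffer cells Tnfrsf13c had 0.576, 2.66 and 0.471 CPM in KO, against 17.2, 8.42 and 6.23 CPM in WT (log2 -3.13, SE 0.75, adjusted p = 0.284). The groups did not overlap. Tnfrsf12a, the receptor of TWEAK, had 4.24, 4.38 and 7.97 CPM in KO, against 14.9, 6.41 and 14.0 CPM in WT, and the groups overlapped (adjusted p = 0.701). Tnfrsf17 was at or below 0.54 CPM in every Kupffer library (adjusted p = 0.672). KO Kupffer replicate 3 was the lowest of the 6 for Ltb, Fas and Cd27, at 15.5, 9.96 and 5.06 CPM. It was also the lowest for summed endothelial markers, at 2071 CPM, against 4267 and 5259 CPM in the other KO libraries and 5013 to 6331 CPM in WT. Summed stress genes in Kupffer cells were 15230 to 16960 CPM in KO and 16720 to 32640 CPM in WT, and the part of either list was not tested.

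In splenic macrophages Ltb came nearest to a call. It had 13.7, 14.8 and 15.5 CPM in KO, against 57.9, 25.2 and 38.1 CPM in WT. The groups did not overlap, with a log2 difference of -1.41 (SE 0.28, adjusted p = 0.0893, and 0.000151 to 0.267 over the alternatives). Tnfrsf13c had 3.53, 3.78 and 6.26 CPM in KO, against 29.5, 13.1 and 10.04 CPM in WT, also without overlap (log2 -1.91, SE 0.43, adjusted p = 0.135). Cd40 had 3.8, 9.63 and 4.92 CPM in KO, against 16.6, 7.03 and 9.38 CPM in WT, and the groups overlapped. All 13 B cell markers fell in KO splenic macrophages, to summed levels of 84.2 to 136 CPM, against 1376 to 2068 CPM in WT. The part of B cell transcripts in Ltb, Tnfrsf13c and Cd40 was not tested.

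Of the other splenic members described, some lay above and some below their WT levels. Tnfrsf14 had 45.2, 35.5 and 37.4 CPM in KO, against 19.6, 15.2 and 27.1 CPM in WT (log2 0.97, SE 0.23, adjusted p = 0.158). Tnfsf18 had 9.81, 13.3 and 11.3 CPM in KO, against 5.55, 6.76 and 6.51 CPM in WT (log2 0.91, SE 0.22, adjusted p = 0.169). Neither pair of groups overlapped. Tnfrsf25, the death receptor for TL1A, had 1.99, 1.86 and 3.15 CPM in KO, against 0.395, 0.42 and 0.818 CPM in WT (log2 2.12, SE 0.48, adjusted p = 0.136). Its ligand Tnfsf15 (TL1A) had 0.615, 0 and 1.25 CPM in KO, against 5.58, 4.09 and 4.02 CPM in WT, lower without overlap (adjusted p = 0.386). Tnfrsf22 was lower without overlap too, with 0.887, 0.0775 and 0.0633 CPM in KO, against 3.36, 1.3 and 2.06 CPM in WT (log2 -2.65, not called). Tnf had 89.4, 309 and 90.7 CPM in KO, against 89.1, 56.4 and 38.8 CPM in WT (log2 1.48, SE 0.56, adjusted p = 0.365). KO replicates 1 and 3 lay just above the highest WT library, and KO replicate 2 lay far above it. The log2 difference was 0.58 without KO replicate 2. That library also held the highest NF-κB target sum, 10260 CPM, against 6301 and 5987 CPM in the other KO libraries and 5485 to 8443 CPM in WT. Summed stress genes were 47160 to 64520 CPM in KO and 36040 to 42990 CPM in WT. Of the neutrophil markers 4 of 13 rose, to a sum of 646 to 871 CPM in KO, against 180 to 252 CPM in WT, and of the T and NK cell markers 1 of 14 rose (Cd8a). Of the monocyte markers 1 of 11 fell (Ms4a4c), with sums of 767 to 820 CPM in KO and 966 to 1017 CPM in WT. The part of these lists was not tested.

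In microglia 17 members were not tested for low counts, and the other 25 gave no unadjusted p under 0.05. The members tested had a median absolute log2 difference of 0.21, against 0.24 for all genes. In the other types the members' medians were 0.45 in alveolar macrophages, 0.38 in Kupffer cells and 0.58 in splenic macrophages, against 0.30, 0.25 and 0.28 for all genes.

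Over the 4 cell types as a whole, in a fit of all 24 libraries, 1 of 40 members was called, against 0.624% of all genes, and 11 had an unadjusted p under 0.05 (9.79% of all genes). It was Tnfrsf13c, lower in KO with an adjusted p of 0.00812 (0.47% of all genes were called lower). Its groups did not overlap in alveolar macrophages, Kupffer cells or splenic macrophages. In microglia it had 0 reads in 5 of the 6 libraries and 39 reads (0.727 CPM) in WT replicate 1, and without that library the adjusted p was 1.0. B cell markers were lower in KO in the same fit, 11 of 13 tested. In alveolar macrophages 4 of 12 fell, with sums of 97.7 to 124 CPM in KO and 225 to 338 CPM in WT. In Kupffer cells 6 of 13 fell, with sums of 132 to 163 CPM in KO and 857 to 1345 CPM in WT. In microglia 0 of 7 were called, with sums of 509 to 682 CPM in KO and 577 to 703 CPM in WT. Pax5, which defines the B lineage, had 0 reads in KO alveolar, Kupffer and splenic libraries and reads in the WT groups of these types. The part of B cell transcripts in the call of Tnfrsf13c was not tested. DESeq2 called 5 members (2.82% of all genes).

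**Figure D5:**
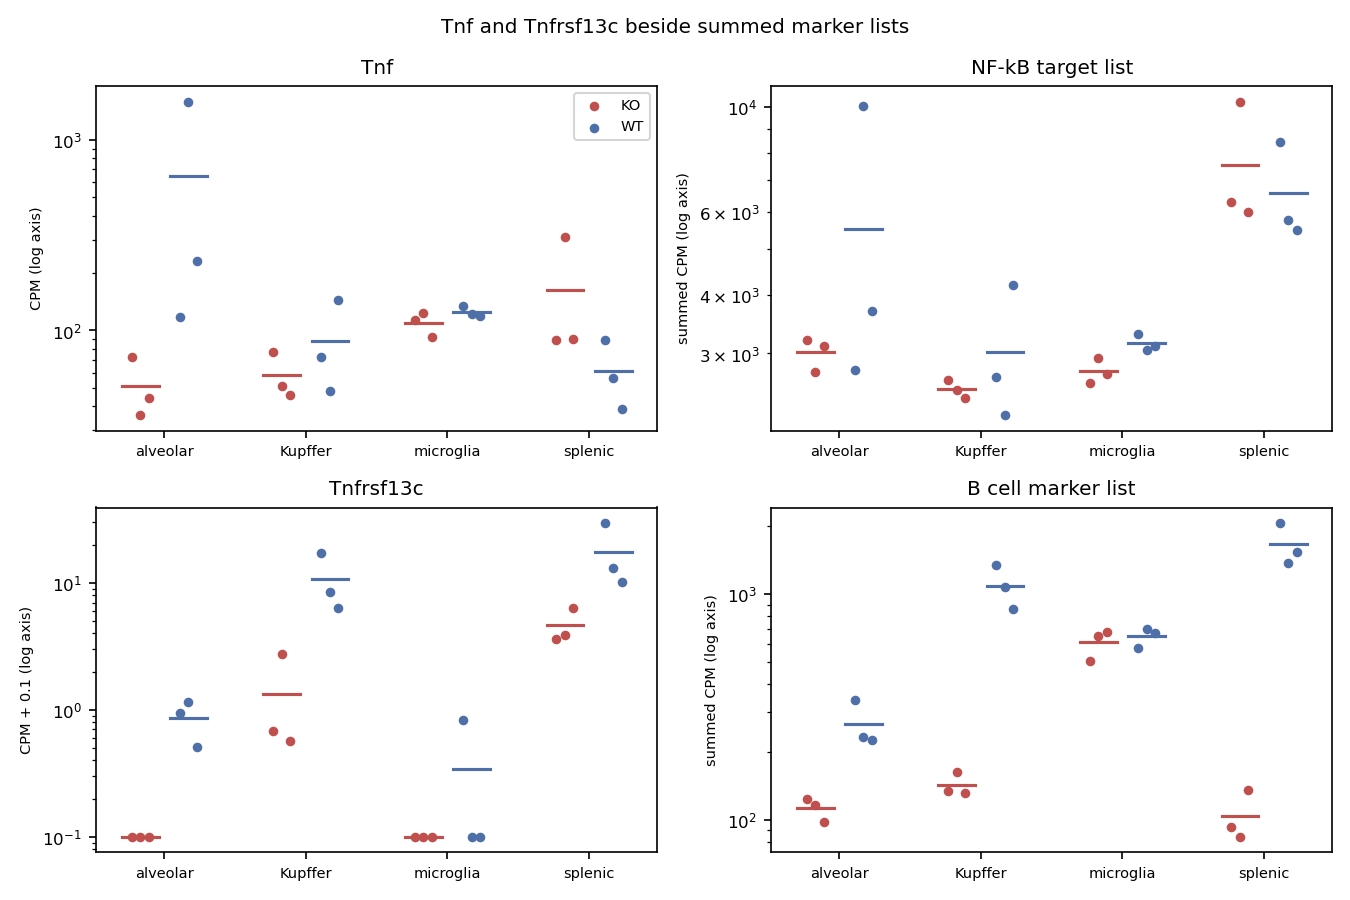
Tnf beside the summed CPM of 17 NF-κB target genes (top) and Tnfrsf13c, with 0.1 CPM added, beside the summed CPM of 13 B cell markers (bottom), 1 point per library, a line at each mean, KO left of WT, logarithmic axes. WT alveolar replicate 2 is the highest alveolar library in both top panels, and within each cell type other than microglia the KO points lie below the WT points in both bottom panels.

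The KO effect was not shown to differ between cell types for any member. The test of that difference called 0 of 40 members, against 0.524% of all genes, and 7 had an unadjusted p under 0.05 (11.6% of all genes). DESeq2 called 3 (4.33% of all genes). Tnf, with a log2 difference of -3.68 in alveolar and 1.48 in splenic macrophages, had an adjusted p of 0.0907, and 0.0295 to 0.232 without 1 library at a time. Tnfsf9 had an adjusted p of 0.252. DESeq2 called both.

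The genes that act downstream of these receptors were not called either. Of 26 receptor adaptors and death effectors, 15 IKK and NF-κB subunits, 17 NF-κB target genes and 8 genes of ligand shedding and processing, 0 were called in KO against WT in any cell type. Of all genes 0.317% were called in alveolar macrophages, 0.0629% in Kupffer cells, 0% in microglia and 0.747% in splenic macrophages. At such shares, 0 calls in lists of this size says little about these genes. The median log2 difference of the NF-κB targets was -0.82 in alveolar macrophages, with 16 of 17 below 0, and 0.47 in splenic macrophages, with 5 of 17 below 0. In Kupffer cells it was -0.22 and in microglia, where 15 were tested, -0.06. Adaptors had medians from -0.13 in alveolar macrophages to -0.01 in microglia. Relt, a receptor of the family outside the naming rule, had 45.4 to 89.1 CPM in KO and 64.6 to 76.0 CPM in WT alveolar macrophages. Between WT cell types 19 of 26 adaptors, 10 of 15 subunits, 16 of 17 targets and 7 of 8 shedding genes differed, against 52.3% of all genes. In WT microglia against the other WT types, 10 of 17 NF-κB targets were called lower and 2 higher (Ccl3 and Ccl4). Of all genes 20.3% were called lower there and 21.7% higher.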

How the data were processed

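RNA of sorted macrophages was made into libraries with a SMARTer Ultra Low kit, per the labels' protocols. The authors deposited separate tables of raw counts, CPM and TPM per gene. The submitters' processing notes name build mm10 and DRAGEN, STAR, Subread, featureCounts and Salmon, and neither the role of each nor the strand setting was stated. Counts were used as deposited after 287 repeated rows were dropped, CPM were recomputed from them, and TPM were used as deposited for levels between genes. Some deposited TPM columns, recorded as a score, sum to over 1000000 only with the repeated rows. Gene positions are GENCODE vM21.

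Tests used edgeR 4.0.16 in R 4.3.3: quasi-likelihood F tests, TMM scaling, a filter at a minimum count of 10, and Benjamini-Hochberg adjustment over all genes tested. KO and WT were compared within each cell type, and cell types within each genotype. The fit functions were tested on simulated counts for alveolar KO against WT, for all 24 libraries and for the WT cell types. The other comparisons and the promoter and cluster steps were not simulated. Members and gene lists were chosen with earlier results of these data known. Named members were those called between KO and WT, the 3 ligands and 5 receptors of highest TPM per WT cell type, the 2 highest and 2 lowest folds called per WT cell type with at least 5 CPM in the higher group, and others above 1 CPM. One gene of the family is not reported here.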

Additional observations from a re-analysis of the deposited data

How the results depend on the processing

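Between KO and WT, DESeq2 1.42.0 called 6 members in alveolar macrophages, 2 in Kupffer cells and 5 in splenic macrophages, against 0 in edgeR; it called 3 for the difference of the KO effect between cell types and 5 for the mean KO effect. Without a filter on low counts the numbers were 1 in alveolar macrophages, 2 in splenic macrophages and 1 for the difference between cell types, and the fit of all 24 libraries called 2 in alveolar macrophages. Leaving out 1 library at a time gave 0 to 0 calls within each cell type, 0 to 1 for the difference between cell types (1 without WT alveolar replicate 1 or KO splenic replicate 1) and 0 to 2 for the mean KO effect (0 without WT microglia replicate 1). It gave 25 to 30 members between WT cell types and 26 to 32 between KO cell types. Against the other WT types it gave 12 to 16 in alveolar macrophages, 14 to 23 in Kupffer cells (14 without WT replicate 1), 14 to 19 in microglia and 12 to 20 in splenic macrophages (12 without WT replicate 1 or 2). Over the 6 pairs of WT types it gave 81 to 99 calls, against 104 with all libraries, and 36 to 36 members reached 1 CPM. The causes were not tested. The share of all genes called without the filter, or without 1 library, is not given here, so those counts cannot be read against it. No result changed sign under any alternative run.

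Same-numbered libraries did not deviate together (correlations from -0.12 to 0.17), so the numbers were not taken as pairs. With the replicate number as a block, 0 members were called within each cell type, 0 for the difference between cell types and 1 for the mean KO effect. The block called 27 members between WT types and 28 between KO types, and Tnf between WT types was lost (adjusted p = 0.0802). The share of all genes called with the block is not given here either. At 50449347 counts, the smallest library, 3 reads are 0.0595 CPM, and members below 1 CPM rest on few reads.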
